A study of Mus musculus with 4 samples.

Results

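Müller glia of adult mouse retinas were compared with Müller glia of postnatal day 8 (P8) retinas, across all 566 mouse miRNA probes of a nanoString nCounter panel. The 2 libraries are the youngest and the oldest glial samples of a set of 4. The other two hold Müller glia at P11 (titled P11/12) and retinal progenitor cells (RPC) at P2. The P8, P11 and adult cells came from Rlbp-CreER mice crossed to a Cre-dependent tdTomato reporter, in which the Rlbp promoter drives a tamoxifen-activated Cre, and red cells were collected by fluorescence-activated sorting. All mice received tamoxifen at 75 mg/kg on 2 days: P6 and P7 for the P8 glia, P9 and P10 for the P11 glia, and after P21 for the adult glia, whose exact age the labels do not give. Sorted cells were pooled from 52 retinas at P8, 32 at P11 and 40 in the adult. The P2 cells came from 8 retinas of mice with a Sox2-driven Cre and the same reporter. Each age is 1 library, so no difference between ages could be set against a spread between replicates, and no p-values were computed. Age, age at tamoxifen, number of retinas and assay lane cannot be told apart. In such bulk samples, fewer cells with a miRNA and less of it per cell cannot be told apart either.

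Müller glia are the last cell type that retinal progenitors produce, and they leave the cell cycle in the first postnatal weeks while they take on the support functions of mature glia. A miRNA guides Argonaute proteins to messenger RNAs mainly through its seed, bases 2 to 8 from its 5′ end, and miRNAs with one seed are counted as a family. In the mouse retina, let-7 miRNAs increase as progenitors age, the miR-17/92 cluster promotes proliferation in many tissues, miR-204 and miR-9 are abundant in Müller glia, the miR-183 cluster is abundant in photoreceptors, and miR-124 is abundant in neurons. Rlbp1 is also made by the retinal pigment epithelium, where miR-204 and miR-211 are abundant as well, so a part played by such cells was not tested.

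The miRNAs that carry most of the difference are printed first, with the seed in capitals, so that members of a family can be set side by side. Sequences were matched by name to RefSeq (GRCm38.p6) for 124 of the 185 miRNAs that the detected probes target. Higher in adult glia were the miR-29 family, miR-204 with miR-211, and part of the miR-30, miR-99/100 and miR-125 families, with miR-23a and miR-365 beside them:
miR-29a: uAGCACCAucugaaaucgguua
miR-29b: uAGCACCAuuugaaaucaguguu
miR-29c: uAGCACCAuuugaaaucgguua
miR-30a: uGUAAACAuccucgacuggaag
miR-30c: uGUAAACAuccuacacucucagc
miR-204: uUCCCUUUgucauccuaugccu
miR-211: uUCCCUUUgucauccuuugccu
miR-125b-5p: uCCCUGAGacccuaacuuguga
miR-99a: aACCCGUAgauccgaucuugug
miR-100: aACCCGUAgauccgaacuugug
miR-23a: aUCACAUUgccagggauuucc
miR-365: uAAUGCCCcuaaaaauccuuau

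Lower in adult glia were the members of the miR-17 and miR-19 seeds with miR-25, the miR-15/16 seed, the miR-183 cluster, let-7i and miR-340-5p. The probe labelled miR-20a+20b and that labelled miR-106a+17 each read a pair of near-identical miRNAs, and the 4 sequences differ outside the seed:
miR-17: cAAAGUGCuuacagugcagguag
miR-106a: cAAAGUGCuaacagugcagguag
miR-20a: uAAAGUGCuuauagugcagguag
miR-20b: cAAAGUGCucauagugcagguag
miR-93: cAAAGUGCuguucgugcagguag
miR-106b: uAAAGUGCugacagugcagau
miR-19a: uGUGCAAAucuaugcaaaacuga
miR-19b: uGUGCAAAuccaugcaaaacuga
miR-25: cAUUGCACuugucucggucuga
miR-15a: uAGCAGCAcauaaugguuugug
miR-15b: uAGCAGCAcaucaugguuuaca
miR-16: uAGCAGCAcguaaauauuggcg
miR-322: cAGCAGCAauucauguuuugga
miR-96: uUUGGCACuagcacauuuuugcu
miR-182: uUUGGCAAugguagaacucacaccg
miR-183: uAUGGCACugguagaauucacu
let-7i: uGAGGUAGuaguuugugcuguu
miR-340-5p: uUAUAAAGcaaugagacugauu

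The P8 library held 576117 counts over all probes, 470304 of them on mouse miRNAs, and the adult library 769736 and 695390. A probe counted as above background when it passed the mean plus 2 SD of the 8 negative control probes of its lane, which was 137.2 raw counts at P8 and 71.7 in the adult. The P8 lane thus had the higher background, and 134 of 566 probes passed it there against 171 in the adult. Of the 180 probes that passed in at least 1 of the libraries, 46 passed in the adult only, 9 at P8 only and the others in both. Counts were scaled on the positive controls and then on the 100 most abundant miRNA probes, and a count that did not pass background was raised to the threshold, so that a ratio against it is a bound. After this scaling the housekeeping mRNAs were lower in the adult lane, by log2 differences of -0.22 for B2m, -0.40 for Actb, -0.65 for Gapdh and -1.11 for Rpl19.

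The pool of miRNAs was more concentrated in the adult. The 10 most abundant probes took 63.4% of the miRNA counts at P8 (95% Wilson interval 63.3 to 63.6, counting error only, as for all intervals here), 71.5% at P11 and 79.4% in the adult (79.3 to 79.5), and 8 of the 10 were the same miRNAs at P8 and in the adult. miR-9, a miRNA of neural progenitors and glia, ranked first at P8 with 21.4% of counts (21.3 to 21.5) and held 18.5% at P11 and 9.40% in the adult (9.33 to 9.46). miR-204 ranked second at P8 with 11.9% (11.8 to 12.0), then took 20.5% at P11 and 35.6% in the adult (35.5 to 35.7). miR-125b-5p went from 4.70% (4.63 to 4.76) through 6.24% to 13.7% (13.6 to 13.7). miR-204 and miR-125b-5p together replaced miR-9 at the head of the list, while miR-181a held close to the same share, 5.66% at P8 and 6.09% in the adult. On the scaled counts, the sum over all miRNA probes was 434439 at P8 and 797547 in the adult. miR-204 made up 63.9% of that gain and miR-125b-5p 24.4%. This gain and its percentages depend on the scaling: scaled on total miRNA counts, the sums are equal by construction. The scaled counts of miR-9 changed less than its share and were 92996.7 at P8, 96820.9 at P11 and 74935.4 in the adult, a log2 difference from P8 to adult of -0.31. Among counts other than those of miR-204, miR-9 held 24.3% at P8 and 14.6% in the adult.

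**Figure D1:**
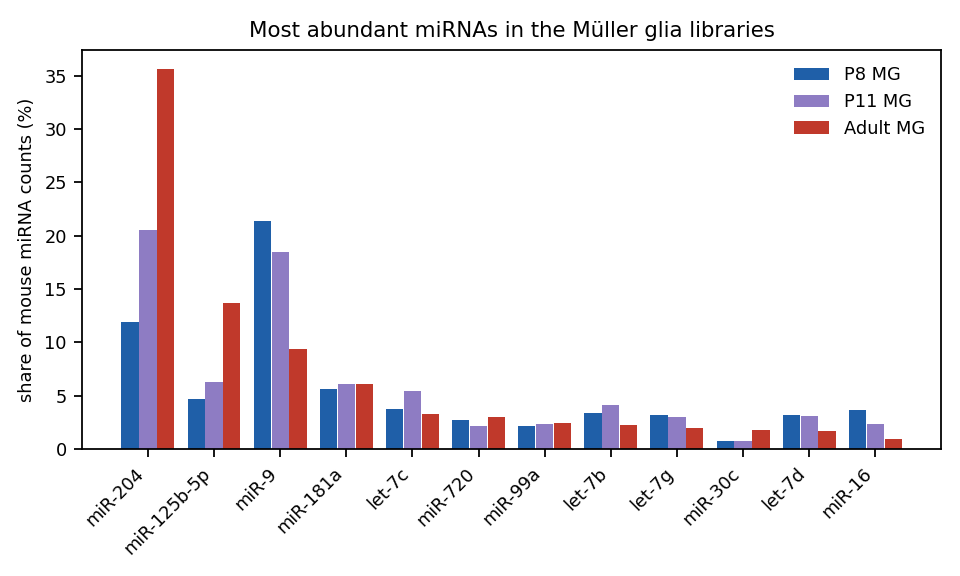
Share of all mouse miRNA counts (y axis, percent) held by each of the 12 miRNAs that ranked among the 10 most abundant at P8 or in the adult, in 1 library each of P8, P11 and adult Müller glia. miR-204 stands at 11.9, 20.5 and 35.6% and miR-9 at 21.4, 18.5 and 9.40%; shares compare a miRNA between libraries, since probes can differ in efficiency.

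A miRNA was called when its larger count was above background, the libraries were at least 2-fold apart, and the exact 95% interval of the ratio of counts lay off 1. By this rule 27 of the 180 detected miRNAs were higher in adult glia and 31 were lower, 15% and 17.2%, together 58 or 32.2%, and 122 were not called. The counts of called members in each family and list below stand against these shares. The median log2 difference was 1.97 among the higher, -1.76 among the lower and -0.26 over all 180. Differences of at least 4-fold were found for 13 miRNAs in each direction. All 27 higher miRNAs had adult counts of at least 3 times background, against 21 of the 31 lower ones at P8. The other 10 lower calls rested on 187 to 407 raw counts at P8, near a background of 137.2. The 386 probes below background in both lanes had a median log2 difference of -0.44 in their scaled counts, close to the -0.46 of the negative controls, and 11.9% of them were at least 2-fold lower and 3.1% at least 2-fold higher in the adult. Dim probes as a class therefore read lower in the adult lane, in which the background was lower.

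**Figure D2:**
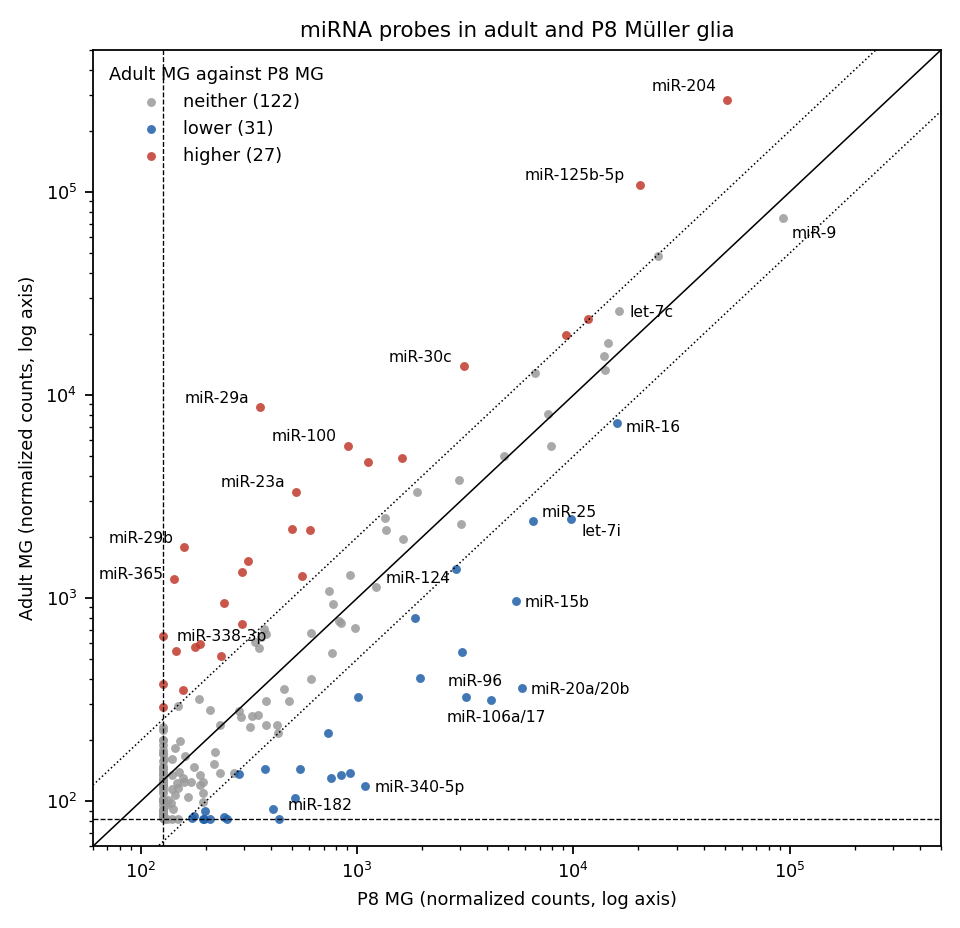
Normalized counts at P8 (x axis, log scale) and in the adult (y axis, log scale) for the 180 miRNA probes above background in either library, colored by call, with a solid line at equality, dotted lines at 2-fold and dashed lines at the background of each lane, on which bounded counts lie. miR-29a, miR-29b, miR-365, miR-23a and miR-100 lie farthest above the lines and miR-20a+20b, miR-106a+17, miR-96 and miR-340-5p farthest below.

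The miR-29 family, known for repressing collagen and other extracellular matrix genes, had the largest difference. miR-29a had 355.6 normalized counts at P8, 1403.8 at P11 and 8699.3 in the adult, 24.5-fold higher in the adult than at P8 (22.1 to 27.2). For miR-29b the counts were 158.0, 281.4 and 1780.0, or 11.3-fold (9.62 to 13.3). miR-29c went from 606.9 through 727.4 to 2171.1, or 3.58-fold (3.27 to 3.92). All 3 members were highest in the adult library, but they changed places: miR-29c was the most counted at P8 and miR-29a in the adult. miR-29a and miR-29c differ by the single substitution C10U, counted from the 5′ end, and whether either probe also reads the other miRNA was not tested. The Mir29a and Mir29b-1 hairpins lie within 375 bases of each other on chromosome 6 and Mir29b-2 and Mir29c within 531 bases on chromosome 1.

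Of the 5 miR-30 members, a family that is raised in differentiated cells of several tissues, 4 were higher. miR-30c was the most counted, with 3114.9 at P8, 4087.1 at P11 and 13901.7 in the adult, 4.46-fold (4.30 to 4.64). For miR-30a the counts were 500.7, 700.3 and 2187.2, or 4.37-fold (3.97 to 4.82). The corresponding values of miR-30d were 1119.6, 1791.3 and 4687.4, or 4.19-fold (3.93 to 4.47). These 3 members thus differed by nearly the same factor, and most of the difference came after P11. miR-30b was 2.34-fold higher (2.11 to 2.58). miR-30e was not called at 1.72-fold (1.43 to 2.07), although its sequence differs from that of miR-30a by C13U alone. Its hairpin lies with Mir30c-1 within 3098 bases on chromosome 4, but mature miR-30c also comes from Mir30c-2 on chromosome 1. The median log2 difference of the family was 2.07.

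miR-204, which is abundant in Müller glia, lens and pigment epithelium, was at 51582.6 normalized counts at P8, 107281.0 at P11 and 283760.8 in the adult, 5.50-fold (5.45 to 5.55). It was the most counted miRNA of the adult library, and the narrow interval reflects only the large counts behind it. The same-seed miR-211 had 70 raw counts at P8 and 114 at P11 and 329 in the adult, below background only at P8, and was at least 2.98-fold higher in the adult. miR-211 differs from miR-204 by A17U, and whether miR-204 added to the counts of the miR-211 probe was not tested.

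The miR-99/100, let-7 and miR-125 miRNAs are encoded together at several places in the genome, and the members of these places behaved differently. miR-100 had 903.4 normalized counts at P8, 2222.1 at P11 and 5631.3 in the adult, 6.23-fold (5.82 to 6.68). miR-99a, which differs from miR-100 by U16A, had 9209.7, 12421.4 and 19721.1, or 2.14-fold (2.09 to 2.20). miR-99b, with the same seed, was instead 1.37-fold lower (1.24 to 1.52) and was not called. The miR-125 family split the same way. miR-125b-5p stood at 20397.1 at P8, 32692.1 at P11 and 108877.0 in the adult, 5.34-fold higher (5.26 to 5.42). Its passenger strand miR-125b-3p stood at 177.4, 232.7 and 573.5, or 3.23-fold (2.73 to 3.84). miR-125a-5p was 1.39-fold lower (1.34 to 1.44), with 7849.0 counts at P8 and 5643.9 in the adult. Thus miR-99b and miR-125a-5p, which share one place with let-7e, did not take part in the gain of miR-100, miR-99a and miR-125b-5p.

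Of the 9 let-7 members, which oppose proliferation and mark later developmental stages, 1 was lower and 8 were not called, with a median log2 difference of 0.09. let-7i went from 9703.9 normalized counts at P8 through 7749.8 at P11 to 2463.6 in the adult, 3.94-fold lower (3.76 to 4.13). let-7c, the member most raised, had 16200.6, 28643.0 and 26040.5, or 1.61-fold higher (1.58 to 1.64). let-7a was at 7629.2 and 8116.7, and let-7b at 14415.0 and 17961.7. let-7i therefore stood apart from the other members, and it differs from let-7a by G12U, A17G, U18C and A19U. Across the 8 other scalings let-7i stayed lower, from -2.85 to -1.38 on the log2 scale, whereas the sign of the difference was not settled for let-7a (-0.79 to 0.69) or let-7c (-0.19 to 1.28). miR-1961, which carries the let-7 seed, was the miRNA just outside the 2-fold rule at 1.99-fold, and miR-720 just inside it at 2.04-fold.

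Further higher miRNAs stood singly, with no other member of their family called. miR-365 had 142.3 normalized counts at P8, 364.8 at P11 and 1249.0 in the adult, 8.78-fold (7.41 to 10.5). miR-193b, whose hairpin lies in the same cluster as Mir365-1, was not called at a log2 difference of -0.31. Mature miR-365 also comes from Mir365-2 on chromosome 11. miR-23a, which with miR-27a and miR-24 comes from 1 transcript on chromosome 8, had 522.8, 859.4 and 3347.8, or 6.4-fold (5.85 to 7.02). miR-23b, its closest relative, had 337.2 at P8 and 605.6 in the adult, 1.80-fold higher (1.57 to 2.06), and was not called, but became a higher call under 5 of 8 scalings. The cluster partners of miR-23a were not called, miR-27a at 1.46-fold and miR-24 at a log2 difference of -0.10. The 3 hairpins lie within 334 bases, and the neighbours miR-23a and miR-27a differed in their mature counts. Mature miR-24 also comes from Mir24-1 on chromosome 13, so its counts cannot be assigned to this cluster. miR-338-3p, a miRNA of oligodendrocytes and neurons encoded in the Aatk gene, had 123 raw counts at P8, 190 at P11 and 565 in the adult, at least 5.11-fold higher. miR-22, which is raised in many differentiated cells, had 1620.2 normalized counts at P8, 2174.5 at P11 and 4926.0 in the adult, 3.04-fold (2.88 to 3.22). miR-140, best known from cartilage, was 2.54-fold higher (2.22 to 2.92). miR-720, now regarded as a fragment of a transfer RNA, had 11673.3, 11271.9 and 23782.3, or 2.04-fold (1.99 to 2.08).

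The remaining 8 higher probes all belonged to a run of 67 probes whose numbers lie between miR-1894 and miR-1983, of which 8 were higher, 0 lower and 11 not called. Over all detected probes 15% were higher and 17.2% lower. miR-1927 was 4.89-fold higher, miR-1960 4.55-fold, miR-1965 3.93-fold, miR-1968 3.76-fold, miR-1966 3.18-fold, miR-1933-5p at least 2.30-fold, miR-1896 2.26-fold and miR-1900 2.22-fold. The counts of several of them followed those of miR-204 closely across the P8, P11 and adult glia, but not in the P2 progenitors. After subtraction of the mean negative control, miR-1927 stood at 0.479% of the miR-204 counts at P8, 0.502% at P11 and 0.522% in the adult, and miR-1960 at 0.445%, 0.449% and 0.456%. For miR-1965 the values were 0.341%, 0.301% and 0.318%. At P2 these shares were higher, at 0.659% for miR-1927, 0.871% for miR-1960 and 0.536% for miR-1965. Others did not keep to 1 ratio among the glia either: from P8 to adult miR-1900 went from 0.330% to 0.168% and miR-1896 from 0.176% to 0.109%. The part of miR-204 in the counts of these probes was not tested, and without them 19 miRNAs were higher.

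**Figure D3:**
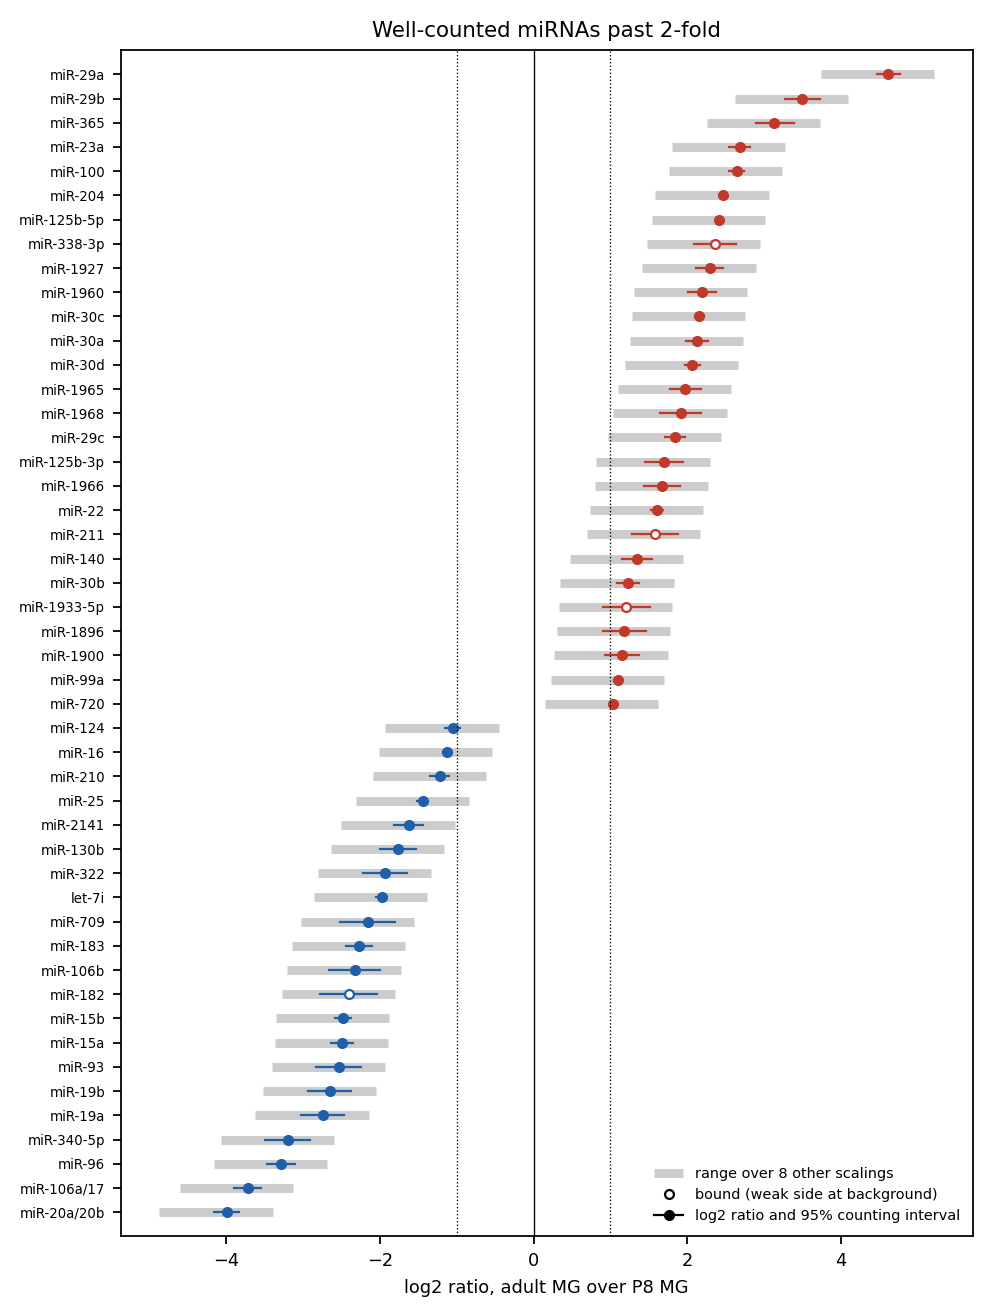
Log2 ratio of adult to P8 normalized counts (x axis) for the 48 called miRNAs with at least 3 times background in the higher library (points, open where the ratio is a bound), with exact 95% counting intervals (thin bars) and the range over 8 other scalings (grey). The higher miRNAs run from miR-720 at 1.03 to miR-29a at 4.61 and the lower ones from miR-124 at -1.05 to miR-20a+20b at -3.99.

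Among the lower miRNAs, the miR-17/92 cluster and its paralogs miR-106a to miR-363 and miR-106b/25, which promote proliferation, came first. Of their 10 probes 7 were above background, and all 7 were lower in adult glia, with a median log2 difference of -2.65. The other three, miR-18a, miR-92a and miR-363, were at or below background in both lanes. The miR-20a+20b probe had 5774.3 normalized counts at P8, 2155.0 at P11 and 362.4 in the adult, 15.9-fold lower in the adult (14.2 to 17.9). miR-106a+17 had 4163.3, 1534.8 and 315.4, or 13.2-fold (11.7 to 15). In P2 progenitors both were higher than in any glial library, at 19315.4 and 12638.3. miR-19a was 6.71-fold lower (5.54 to 8.17), and miR-19b 6.28-fold (5.17 to 7.68). miR-93 was 5.78-fold lower (4.75 to 7.09) and miR-106b 5.02-fold (4.01 to 6.34). miR-25, processed from the same transcript as miR-93 and miR-106b, changed less: its counts were 6470.8 at P8, 3517.7 at P11 and 2385.6 in the adult, 2.71-fold (2.58 to 2.85). Within the 476 bases that hold these 3 hairpins on chromosome 5, the log2 differences thus ran from -2.53 to -1.44. The call of miR-25 was lost under the 2 scalings on housekeeping mRNAs (with a log2 difference of -0.84 under one of them), and the other 6 probes of these clusters kept theirs under all 8.

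The miR-15/16 seed, which represses cyclins and other cell cycle genes, was lower as well: of 5 detected members 4 were called lower, and the median log2 difference was -1.93. miR-15a had 3065.0 normalized counts at P8, 1816.2 at P11 and 544.8 in the adult, 5.63-fold lower (5.11 to 6.21). miR-15b had 5412.2, 3343.5 and 971.4, or 5.57-fold (5.18 to 6). These 2 members had nearly the same ratio although they lie on different chromosomes. miR-16, the most counted member, had 15914.2, 11991.7 and 7254.2, only 2.19-fold lower (2.13 to 2.26), and lost its call under 5 of 8 scalings. miR-322 had 545.9, 757.7 and 143.4, or 3.81-fold lower (3.14 to 4.66), with its highest value at P11. miR-195 was not called, with 112 and 96 raw counts. miR-130b, of the family of miR-130 and miR-301, had 731.6, 494.6 and 215.6, or 3.39-fold lower (2.89 to 4), while miR-130a was not called at 1.2-fold higher. Another lower miRNA with high counts was miR-340-5p, with 1090.9, 627.8 and 119.3, or 9.15-fold (7.48 to 11.3).

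The miR-183 cluster, which photoreceptors express strongly, was lower with all 3 members. miR-96 had 3182.3 normalized counts at P8, 680.8 at P11 and 326.9 in the adult, 9.74-fold lower (8.63 to 11). miR-183 had 1950.0, 587.7 and 404.9, or 4.82-fold (4.30 to 5.41). miR-182 had 470 raw counts at P8 and 95 and 40 at the later ages, both below background, and was at least 5.28-fold lower. For these 3 the larger part of the log2 difference lay between P8 and P11, unlike most lower miRNAs. miR-124, the most abundant neuronal miRNA, did likewise, with 2879.3 at P8, 1320.5 at P11 and 1388.9 in the adult, 2.07-fold lower (1.94 to 2.22). Its call was lost under 6 of 8 scalings. Of the other 8 neuronal miRNAs looked at, 4 were above background and 0 were called, against 32.2% of all detected probes. The summed normalized counts of the 9 neuronal miRNAs were 3982.3 at P8, 2251.4 at P11 and 2296.1 in the adult. Most of the drop in that sum was miR-124, while miR-132, not called, had 128.4 at P8 and 161.7 in the adult. A part of admixed photoreceptors or neurons in these differences was not tested.

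Markers of other cells were low. The 5 mural and mesenchymal, 3 red blood cell, 5 muscle and liver and 10 pluripotency miRNAs were all below background at P8 and in the adult. Of 7 lens and epithelium miRNAs 2 were above background and 0 were called. miR-200b passed in both libraries, with 155 raw counts at P8 and 94 in the adult, and miR-184, with 112 in each, only in the adult. Of 6 microglia and white blood cell miRNAs 4 were above background and 2 were lower, against 17.2% of all detected probes. The sum over the 6 was 1130.7 at P8, 1310.7 at P11 and 682.4 in the adult. miR-142-3p, a miRNA of blood-derived cells, had 242.0, 221.9 and 83.7, or 2.89-fold lower (2.22 to 3.80). miR-146a, which is induced in inflammation, had 376.0, 623.4 and 143.4, or 2.62-fold lower (2.14 to 3.23). The other detected members were not called: miR-142-5p had 291.0 at P8 and 259.2 in the adult, and miR-150 had 159.8 and 166.3. miR-223 stayed below background, with 66 raw counts at P8 and 25 in the adult, and miR-155 had 1 count in each. The endothelial miR-126-3p was not called at 1.79-fold lower. Of the 8 miRNAs listed for Müller glia, all were above background in both libraries, 4 were higher and 0 lower, against 15% and 17.2% of all detected probes. That list was drawn up with earlier results of these data known and does not stand as independent evidence.

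The lower calls that remain belonged to no family named above. miR-210, a hypoxia-induced miRNA, had 1856.7, 1971.0 and 797.1 normalized counts, or 2.33-fold lower (2.14 to 2.54), and lost its call under 4 of 8 scalings. miR-2141 was 3.09-fold lower (2.71 to 3.53) and miR-709 4.44-fold (3.49 to 5.71), and both held under all 8. The ratios of miR-804, miR-296-5p, miR-2135 and miR-484 were bounds of at least 3.04-, 2.54-, 2.39- and 2.35-fold. miR-335-3p, miR-369-3p, miR-423-3p and miR-1196 lay between 2.07- and 2.21-fold, and each lost its call under 5 or 6 of the 8 scalings. miR-1196 was the lower miRNA just inside the 2-fold rule and miR-1224, at 1.99-fold, just outside.

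Among miRNAs with a matched sequence, calls at 2-fold within a seed or a cluster did not run in opposite directions. This depended on the threshold. Log2 differences ran from -0.971 to 0.982 in the seed of miR-181a (ACAUUCA), with no call. In the let-7 seed (GAGGUAG) they ran from -1.978 to 0.992, with 1 lower call. At a threshold of 1.5-fold, both seeds held calls in both directions, as did the cluster of Mir181a-1 and Mir181b-1. Of 16 seeds with at least 2 detected probes, 12 held a call. In 5 of these every probe with a matched sequence was called the same way: the seeds of miR-17 (AAAGUGC), miR-15/16 (AGCAGCA) and miR-19 (GUGCAAA) were lower and those of miR-29 (AGCACCA) and miR-204 and miR-211 (UCCCUUU) higher. miR-195, which had no matched sequence, is not in that count and was not called. In the other 7 some probes were called and some not. Of 28 hairpin clusters within 10 kb with at least 2 detected probes, 17 held a call and 7 had all probes called the same way. These counts include single hairpins with both arms detected (Mir335, Mir338, Mir340, Mir423 and Mir574), and some probes enter more than 1 cluster. All probes of the Mir106a cluster on chromosome X are also in the Mir17 cluster on chromosome 14, and miR-29b is in both miR-29 clusters. A hairpin's arms did not always move together. miR-340-5p was 9.15-fold lower, but miR-340-3p was not called at 1.53-fold. From the Mir335 hairpin, miR-335-5p had 1899.2 normalized counts at P8 and 3350.1 in the adult, 1.76-fold higher and not called, while miR-335-3p was 2.21-fold lower. Of 36 probes for the imprinted Dlk1-Dio3 region, which encodes many miRNAs of neurons and stem cells, 11 were above background in either library, but only 4 at P8, so that most ratios were bounds. Of the 11, 0 were called higher and 1 lower, miR-369-3p, against 15% and 17.2% of all detected probes, and their median log2 difference was 0.11. miR-136 was at least 1.84-fold higher, not called, and became a higher call under 5 of 8 scalings.

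The P11 library was not used to choose the calls, although it helped to set the scaling. Its value lay between those of P8 and the adult for 25 of the 27 higher miRNAs and 26 of the 31 lower ones, against 70 of the 122 that were not called. Choosing miRNAs that differ between the ends makes a value in between likely. The exceptions were miR-720 and miR-211 among the higher and miR-1196, miR-124, miR-146a, miR-210 and miR-322 among the lower miRNAs. miR-211 is listed only because its P8 count was raised to the background of 126.8 normalized counts. Without that floor it had 64.7 at P8, 123.4 at P11 and 377.3 in the adult, in rising order. On the log2 scale the step from P11 to the adult was the larger one for 27 of 27 higher and 23 of 31 lower miRNAs, and for 88 of the 122 others. Positions and steps used counts raised to background, and 47 of the 122 others had a bounded ratio, against 3 higher and 5 lower miRNAs. Where P8 and P11 both lay below background, the backgrounds alone fixed the first step at -0.147. The 70 and 88 of the 122 are thus partly set by the floor. The 8 lower miRNAs with the larger step before P11 were miR-96, miR-182, miR-183, miR-124, miR-25, miR-93, miR-2141 and miR-804. The interval from P11 to the adult is also the longer of the pair.

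**Figure D4:**
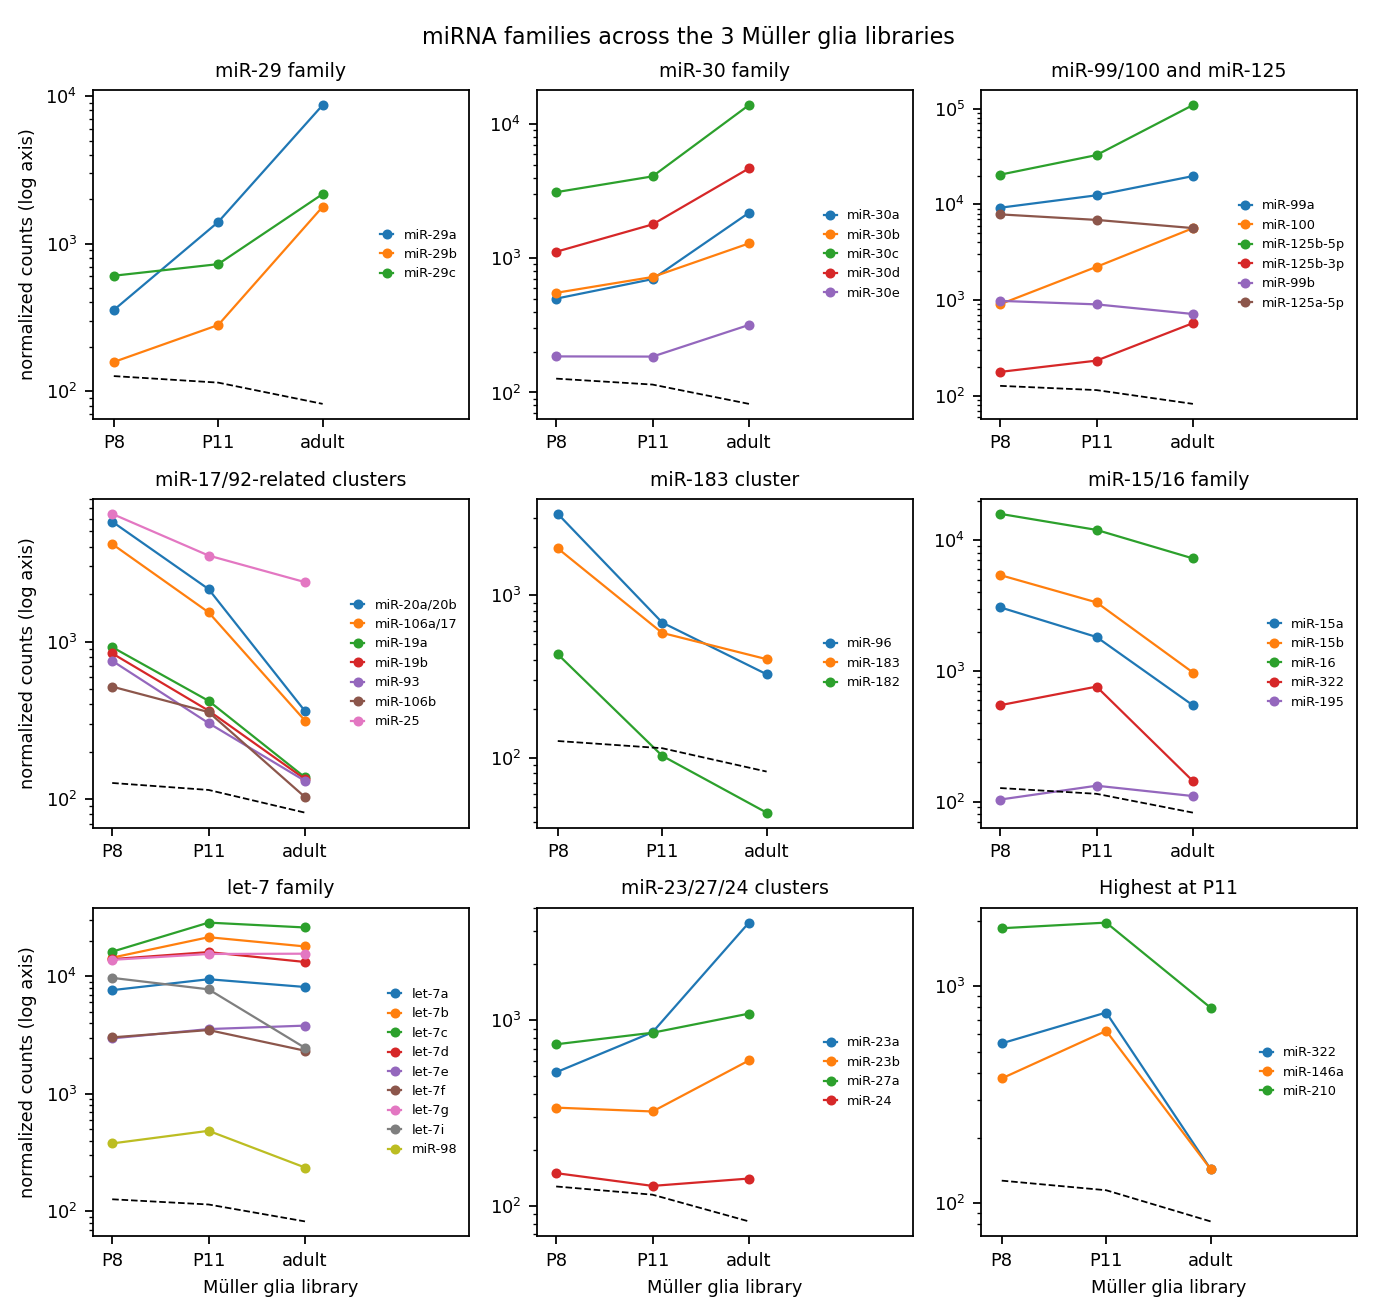
Normalized counts (y axis, log scale) of named families and clusters, in 1 library each of P8, P11 and adult Müller glia (x axis, ordered, not to scale in time), with the background of each lane as a dashed line. miR-29a runs from 355.6 to 8699.3 and miR-20a+20b from 5774.3 to 362.4, and miR-322, miR-146a and miR-210 have their highest value at P11.

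The P2 progenitors differ from the glia in cell type, Cre line and age. Against P8 and the adult, 21 of the 27 higher miRNAs had their lowest value at P2 and 21 of the 31 lower miRNAs their highest. Of the 122 not called, 67 were lowest and 30 highest at P2. Counts were raised to background, which was 54.8 normalized counts at P2, 126.8 at P8 and 82.2 in the adult. A probe below background at both P2 and P8 was thus lowest at P2 by construction, and the 67 are partly set by the floor. Among the 21 higher are miR-211, miR-338-3p and miR-1933-5p, whose P8 counts were below background, so that their order between P2 and P8 was not measured. For most called miRNAs the values at P2, P8 and in the adult thus ran in 1 direction. This order mixes age with the change of cell type and Cre line between P2 and P8, and the P11 values are not in it. miR-100, for example, had 78.5 normalized counts at P2, 903.4 at P8 and 5631.3 in the adult, and miR-15b had 18084.9, 5412.2 and 971.4. The miR-30 members and miR-29c departed from this: the P2 values of miR-30a, miR-30b, miR-30c, miR-30d and miR-29c lay between those of P8 and the adult, so that they were lower at P8 than at P2. miR-142-3p, miR-146a and miR-2141 were lowest at P2 and highest at P8 or P11, and miR-804 and miR-2135 were below background both at P2 and in the adult.

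The split between higher and lower calls depended on the scaling of the lanes. Scaled on total miRNA counts, which miR-204 dominates in the adult, 15 miRNAs were higher and 74 lower, whereas the geometric mean of the 4 housekeeping mRNAs gave 51 and 18. The trimmed mean of M values gave 39 and 22. Relative to the scaling used here, these moved every log2 ratio by -0.88, 0.60 and 0.29. Of the 27 higher calls 15 held under all 8 other scalings, and the 12 that did not were lost on total counts only: miR-125b-3p, miR-140, miR-211, miR-22, miR-29c, miR-30b, miR-99a, miR-720, miR-1896, miR-1900, miR-1933-5p and miR-1966. Of the 31 lower calls 18 held under all 8. miR-29a (log2 from 3.74 to 5.21), miR-204 (1.58 to 3.06), miR-125b-5p (1.54 to 3.01), miR-20a+20b (-4.87 to -3.40) and miR-96 (-4.16 to -2.69) were among those that held, while miR-181a and miR-135a, at 1.98- and 1.92-fold, became higher calls under 6.

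**Figure D5:**
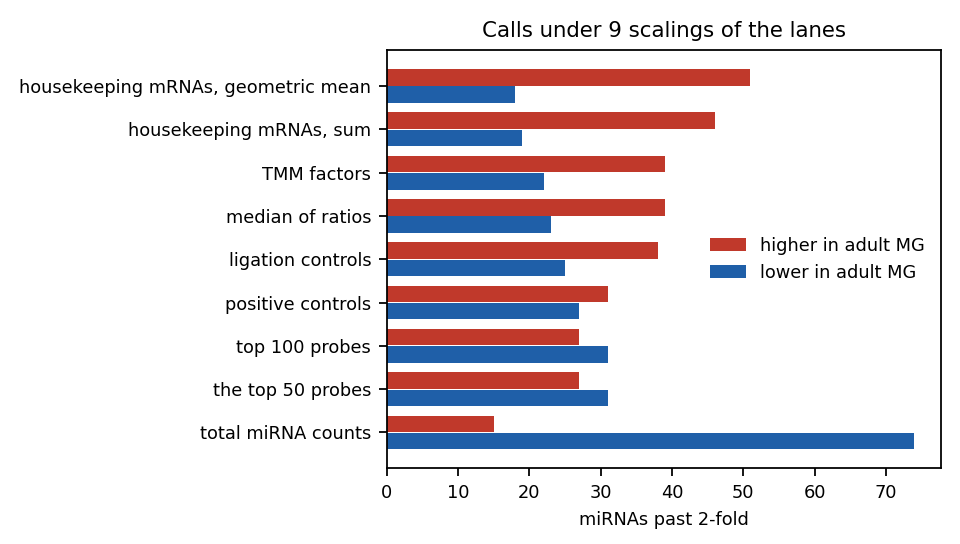
Number of miRNAs called at least 2-fold higher (red) or lower (blue) in adult than in P8 Müller glia (x axis) under 9 scalings of the lanes (y axis). The counts of higher calls run from 15 on total miRNA counts to 51 on housekeeping mRNAs, and those of lower calls from 74 to 18.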

How the data were processed

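Mature miRNAs were tagged and counted with a nanoString nCounter panel in 4 libraries of sorted retinal cells, per the labels' protocols, with RNA purified on a miRNeasy Micro Kit. The authors deposited raw barcode counts per probe, and a processed table, here taken as a score. For 99.8 to 100.0% of its miRNA, viral and housekeeping values, that score matched, within 1 unit, the count less a background set 3 SD above the mean negative control, times 1 lane factor, floored at 1. The software behind the deposited files is not given in the sources used here. Raw counts were scaled on 5 positive controls and on the geometric mean of the top 100 miRNA probes over the 4 lanes (lane factors 0.924 at P8 and 1.15 in the adult). The background threshold of a lane lay 2 SD above the mean of its 8 negative controls, and intervals are exact conditional binomial at 95%, covering counting error only. There is 1 library per age, so no test between ages was made. All miRNAs called were eligible to be named, with the members of 25 lists and the miRNAs next to the 2-fold threshold. The miRNAs and lists were chosen with earlier results of these data known. Alternatives changed the scaling, background, fold threshold and table used. The script was tested on simulated data. Python 3.11.15, scipy 1.17.1 and, for trimmed-mean factors, edgeR 4.0.16 were used.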

Additional observations from a re-analysis of the deposited data

Results flagged for a closer look

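Among the 33 viral miRNA probes, which served no comparison, 2 passed background in the adult library and 0 at P8. mghv-miR-M1-7-5p had 91 raw counts and mcmv-miR-m59-2 had 79 in adult glia, against a background of 71.7.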

How the results depend on the processing

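The count of higher miRNAs was 27 and that of lower ones 31. Scaled on total miRNA counts they were 15 and 74, on the geometric mean of the housekeeping mRNAs 51 and 18, and on their sum 46 and 19. Scalings that add to the adult lane turn 2-fold lower ratios into smaller ones by construction. A threshold of 1.5-fold gave 44 and 48, and 3-fold gave 18 lower. The authors' deposited table gave 83 higher, but it differs in more than its larger background subtraction. Its lane factors were 0.771 at P8 and 1.34 in the adult, near those of the housekeeping sum (0.773 and 1.345). The counting interval and the floor at the background used here were not applied to it. The other 24 counts moved by less than 1.5 times. Among them, without the probes miR-1894 to miR-1983, an alternative chosen after seeing the data, 19 miRNAs were higher. Of the values of single miRNAs under 16 alternatives, 1287 kept their call or, uncalled, stayed within their counting interval, and 103 lost a call. A further 98 gained a call on the side of their main difference. The other 208 uncalled values left that interval, some with a call on the opposite side, such as miR-24 in the authors' table. Of the main calls, 0 reversed. No paired analysis was possible because each age is 1 library. Depth limits dim miRNAs at P8 most, where background was 137.2 raw counts: a difference below it was not detectable.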

Other observations

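The GC content of the mature sequences was alike between the calls: its median was 45.5% over the 18 higher miRNAs with a sequence, 42.9% over the 27 lower ones and 45.5% over the 79 not called. The miR-181 family was spread in both directions without a call. miR-181a had 24570.6 normalized counts at P8 and 48533.6 in the adult, miR-181c had 351.0 and 568.9, and the probe for miR-181b and miR-181d had 269.7 and 137.6. The hairpins Mir181a-1 and Mir181b-1 lie within 206 bases on chromosome 1, and the probes for their miRNAs had log2 differences of 0.98 and -0.97. Mature miR-181a and miR-181b also come from hairpins on chromosome 2, and miR-181d from chromosome 8. The counts therefore cannot be assigned to the pair on chromosome 1.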
